A study of Mus musculus with 16 samples.

Results

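This account covers 10 genes of the cytosolic elongation machinery and its close company in mouse gastrocnemius, the large calf muscle. They were the elongation factor genes Eef1a1, Eef1a2, Eef1b2, Eef1d, Eef1g and Eef2, the kinase gene Eef2k, and Pabpc1, Tpt1 and Npm1. The members were every non-control probe whose gene name in the scanner files was one of these 10 symbols, which gave 21 of the 55681 probes and 10 of the 34650 gene names on the array. The muscles came from male C57BL6 littermates aged 8 to 16 weeks, 3 of them wild-type (WT, Eif6+/+) and 3 heterozygous for Eif6 (Het, Eif6+/-), untreated and with no other allele named. Eif6 encodes a factor that binds the large ribosomal subunit and keeps it from joining the small subunit. Each mouse gave total RNA of the whole muscle and polysome RNA, pooled from the heavy part of a sucrose gradient, which holds mRNAs that carry several ribosomes. WT mice 1 and 2 and Het mice 1 and 3 also gave RNA from the monosome fraction, so that 16 arrays fell into 6 groups of genotype and RNA kind. No promoter or Cre restricted the Eif6 allele to muscle fibres, and in whole-tissue RNA effects in fibres and in other cells cannot be told apart, nor can fewer cells of a type and less RNA per cell.

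During elongation, eEF1A brings aminoacyl-tRNA to the ribosome as a complex with GTP, the eEF1B subunits recharge eEF1A with GTP, and eEF2 moves the ribosome along the mRNA. Many mRNAs for this machinery, and those for cytosolic ribosomal proteins, begin with a cytosine followed by a run of pyrimidines, the terminal oligopyrimidine (TOP) motif. TOP mRNAs shift between polysomes and lighter particles as a class, under mTOR signalling and the RNA-binding protein LARP1. Adult muscle fibres replace eEF1A1 with the isoform eEF1A2, whose mRNA is not a classical TOP mRNA, and eEF2 kinase slows elongation by phosphorylating eEF2. The 8 members treated here as TOP mRNAs, on textbook knowledge and not on these data, were Eef1a1, Eef1b2, Eef1d, Eef1g, Eef2, Pabpc1, Tpt1 and Npm1. They were set against Eef1a2 and Eef2k.

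The array reads each mRNA through probes of 60 bases, whose first base in the transcript is given for each probe named. The opening 30 bases are shown for the probes of the members whose polysome values differed most from whole muscle and for the eEF1A pair, so that it can be seen what was measured. Positions are those of the whole probe on mouse build mm9, as the files give them, and the longest run of bases shared by this Eef1a1 probe and the Eef1a2 probe was 8.
Tpt1, chr14:76247924-76247983, plus strand, from base 707 of its transcript: acctgtcaccataattggctgctgcttacc
Eef1b2, chr1:63225413-63225472, plus strand, from base 718: aggaagcagagaagctacgagaagaacgcc
Pabpc1, chr15:36526752-36526811, minus strand, from base 2192: tctcttgctggtaaaatcactggcatgctg
Eef1d, chr15:75725929-75725988, minus strand, from base 2092: atctgaatgtccgagagagtgtggtttcat
Eef1a1, chr9:78326385-78326444, minus strand, from base 1605: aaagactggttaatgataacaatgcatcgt
Eef1a2, chr2:180884427-180884486, minus strand, from base 1290: cgggttcaatgtgaagaatgtgtccgttaa

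The TOP motif lies at the other end of the mRNA, and RefSeq start sequences (build GRCm38.p6) were at hand for 6 of the 10 members. The longest run made only of C and T, on the gene's strand, was searched from 20 bases before to 50 bases after each annotated start. It is shown in capitals for the eEF1A pair, for Eef2 and for Tpt1, as the members that carry the comparison of TOP mRNAs with Eef1a2. An annotated start need not be the capped base of the mRNA in muscle.
Eef1a1, chr9:78481710-78481739, minus strand: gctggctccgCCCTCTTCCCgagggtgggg
Eef2, chr10:81176634-81176663, plus strand: gacgtcagcggTCTCTTCCgccgcagccgc
Tpt1, chr14:75845276-75845305, plus strand: cggtgacgtagccgagcgtgCCCTCTatat
Eef1a2, chr2:181157014-181157043, minus strand: ttttgcctgTTTTTCTCTCCTggtctgcgt
The run of Eef1a1 was 10 bases long and began 5 bases before the annotated start, which it crossed. Of all 32851 annotated starts, 12% held a run at least as long. The run of Eef2 was 8 bases long (25.4% of starts) and began at base 15 of the annotated transcript. That of Tpt1 was 6 bases long (54.5% of starts) and began at base 41, so in these annotations neither opens the mRNA. Eef1a2 had the longest, 12 bases beginning 19 bases before the annotated start (5.7% of starts), so it lay wholly outside the annotated mRNA. Run length alone, over the stretch searched, did not set the TOP members apart from the muscle isoform. The longest run of Eef1b2 was 5 bases (75.9% of starts), from base 33. Eef2k, the other member set against the TOP mRNAs, had 3 annotated starts, with longest runs of 5, 4 and 8 bases (75.9%, 91.9% and 25.4% of starts) from bases 26, 9 and 24.

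All 10 genes had a probe well above background on all 16 arrays, and 20 of the 21 probes were tested. Of the Eef2k probes, that at base 5708 was well above background on 4 arrays and was left out. The brightest probe stood for a gene with several. Eif6 itself lay at 52.8% of the WT level in Het whole muscle and at 40.4% in Het polysome RNA by its brightest probe, with all Het arrays below all WT arrays of the same RNA. All 10 skeletal muscle markers were detected on every array. The arrays of a group correlated with r of 0.94 to 0.99, except the WT polysome array of mouse 2 (mean r 0.90 with its group) and the WT monosome pair (r 0.78). The polysome and monosome arrays of WT mouse 2 also had little of the usual excess of 3' over 5' probe signal, with a 5' minus 3' log2 difference of -0.12 and 0.33 over 219 probe pairs, against -1.15 to -1.62 on the other 14 arrays. Member values tested on these arrays are therefore also given without WT mouse 2, whose leaving out makes means weigh both genotypes equally, except in fits that already change another setting. Values are log2 of the scanner signal after quantile normalization over arrays, so each is a level relative to the rest of the RNA on that array, and levels of different genes are not compared.

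In whole muscle and on polysomes the TOP members fell into 3 sorts (Tpt1, Eef1b2 and Pabpc1 with low polysome levels, Eef1d with high polysome levels, and the rest with overlapping levels). These held in WT and in Het mice, except that Eef2 overlapped in Het mice only. Levels are given first, on the scale of all 16 arrays and in the order of mice 1, 2 and 3.

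Tpt1 encodes TCTP, the translationally controlled tumour protein, a small and abundant growth-linked protein. Its whole-muscle levels were 15.41, 15.52 and 16.16 in WT and 16.16, 16.23 and 15.79 in Het mice. On polysomes they were 13.59, 11.99 and 13.55 in WT and 13.79, 14.10 and 13.22 in Het mice. Every polysome array lay below every whole-muscle array. Its monosome levels were 16.03 and 11.12 in WT mice 1 and 2 and 16.34 and 15.84 in Het mice 1 and 3, so that 3 monosome arrays stood at the whole-muscle level and WT mouse 2 stood far below. Over the 6 groups the order ran from Het monosome (16.1 ± 0.35, SD, n = 2) through Het and WT whole muscle to Het polysome (13.7 ± 0.45, n = 3), WT monosome (13.6 ± 3.47, n = 2) and WT polysome (13.0 ± 0.91, n = 3). Only WT whole muscle and Het polysome, as neighbours in that order, did not overlap.

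Eef1b2 encodes eEF1B alpha, a nucleotide exchange subunit. Its whole-muscle levels were 11.69, 11.42 and 11.40 in WT and 11.80, 11.77 and 11.45 in Het mice. Polysome levels were 10.40, 9.21 and 10.16 in WT and 10.40, 10.58 and 9.74 in Het mice, all below the whole-muscle arrays. Monosome levels were 11.95 and 8.89 in WT and 11.74 and 11.39 in Het mice, again with WT mouse 2 far below the whole-muscle arrays, and with Het mouse 3 just under the lowest of them.

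Pabpc1 encodes the main cytoplasmic poly(A)-binding protein. Its whole-muscle levels were 10.36, 9.95 and 10.25 in WT and 9.55, 9.94 and 9.56 in Het mice. Polysome levels were 8.96, 8.53 and 8.64 in WT and 8.36, 8.84 and 7.96 in Het mice, all below the whole-muscle arrays. Monosome levels were 11.01 and 8.90 in WT and 10.31 and 9.998 in Het mice.

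Eef1d encodes eEF1B delta, the second exchange subunit, and ran the other way. Its whole-muscle levels were 11.55, 11.68 and 11.58 in WT and 11.72, 11.57 and 11.62 in Het mice. Polysome levels were 12.45, 12.15 and 12.29 in WT and 12.38, 12.44 and 12.12 in Het mice, all above every whole-muscle array. Its monosome levels lay close together, at 11.57 and 11.50 in WT and 11.44 and 11.42 in Het mice.

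Eef2 encodes the translocase and was highest on monosomes. Monosome levels were 13.50 and 13.61 in WT and 13.11 and 13.68 in Het mice, above all whole-muscle levels, which were 12.76, 12.72 and 12.23 in WT and 12.39, 12.25 and 12.48 in Het mice. Polysome levels were 11.69, 11.73 and 11.97 in WT and 11.93, 12.25 and 11.84 in Het mice. The monosome arrays were thus separate from both other kinds of RNA, while whole muscle and polysomes were separate in WT and touched in Het mice.

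Eef1a1, the eEF1A isoform of most tissues, had whole-muscle levels of 11.67, 10.68 and 11.28 in WT and 11.07, 10.87 and 10.51 in Het mice. Its polysome levels were 11.80, 9.64 and 11.11 in WT and 10.59, 10.33 and 10.21 in Het mice, and its monosome levels were 12.34 and 8.60 in WT and 11.61 and 11.41 in Het mice. No 2 groups that were neighbours in order were separate for this gene. Eef1g, the scaffold subunit of eEF1B, had group means of 12.6 ± 0.18 (SD, n = 3) and 12.8 ± 0.13 in WT and Het whole muscle, 12.4 ± 0.23 and 12.6 ± 0.22 on polysomes, and 12.9 ± 0.44 and 13.2 ± 0.13 (n = 2) on monosomes, with no neighbours separate. Npm1, which encodes the nucleolar chaperone nucleophosmin, had means of 10.4 ± 0.13 and 10.3 ± 0.018 in whole muscle and 10.3 ± 0.42 and 10.3 ± 0.046 on polysomes. Its monosome means were the lowest, at 9.17 ± 1.80 in WT and 9.78 ± 0.023 in Het mice (n = 2). Only Het polysome and Het monosome, as neighbours in order, did not overlap.

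Eef1a2, the muscle isoform, had whole-muscle levels of 10.87, 10.57 and 9.86 in WT and 9.37, 9.87 and 9.96 in Het mice. Its polysome levels were 7.68, 9.53 and 9.24 in WT and 9.50, 10.14 and 9.997 in Het mice. The lowest was that of WT mouse 1, and the WT and Het polysome ranges overlapped by a narrow margin. Monosome levels were 8.51 and 10.18 in WT and 8.59 and 9.48 in Het mice. Eef2k had whole-muscle levels of 6.37, 5.79 and 6.26 in WT and 6.34, 6.2 and 5.57 in Het mice, and polysome levels of 5.83, 6.56 and 6.36 in WT and 6.30, 6.54 and 6.42 in Het mice. These 4 groups overlapped. Its monosome levels were 5.15 and 6.39 in WT and 5.03 and 5.69 in Het mice, and both Het monosome levels lay below every polysome and every WT whole-muscle level.

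**Figure D1:**
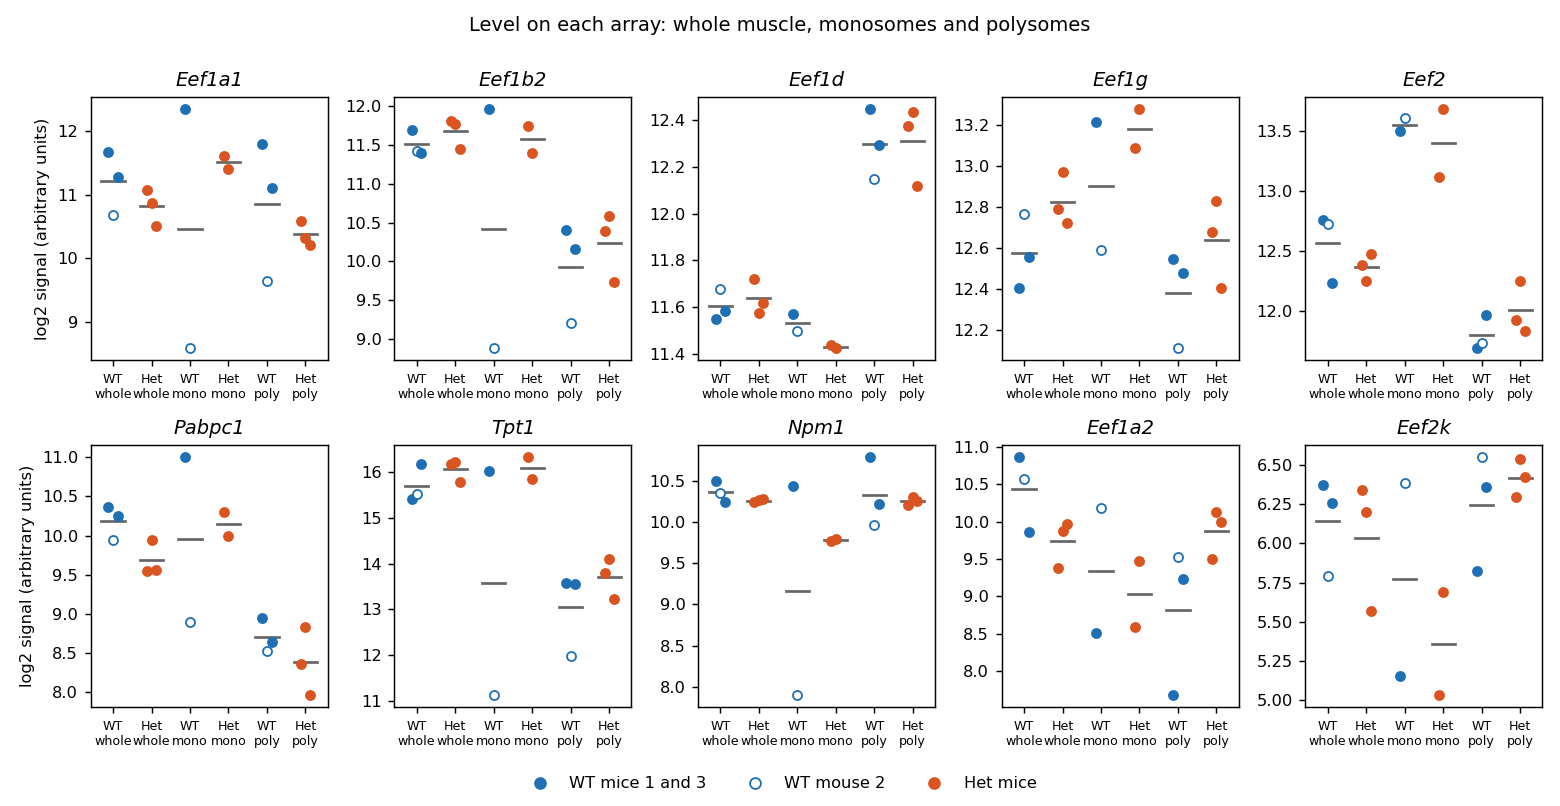
Each panel plots 1 gene, with the log2 signal of its brightest probe on each of the 16 arrays (vertical axis, arbitrary units, own range per gene) against the 6 groups of genotype and RNA kind. Points are mice, open points are WT mouse 2, and bars are group means; Tpt1, Eef1b2 and Pabpc1 sit low on polysomes, Eef1d sits high there, and Eef2 is highest on monosomes.

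Which of these mRNAs sit on polysomes at, above or below their whole-muscle level was tested through loading, the log2 ratio of polysome to whole-muscle signal within a mouse, after normalization of those 12 arrays together. Over all 6 mice, 3 of the 10 members had loading below 0 and 1 had loading above 0 at a Benjamini-Hochberg adjusted p under 0.05 (limma on the 6 ratios). Of all 19806 tested probes, 11.8% were called lower and 13.5% higher, and the median of all probes in single mice lay between 0.028 and 0.16.

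Tpt1 loading was -1.92, -3.65 and -2.65 in WT and -2.41, -2.15 and -2.65 in Het mice. Its mean was -2.57 ± 0.24 (SE), or 5.95-fold lower on polysomes, with an adjusted p of 0.0011 in limma. Its other probes gave -2.75 and -2.46, and -2.55 and -2.23 without WT mouse 2. Eef1b2 loading was -1.27, -2.20 and -1.22 in WT and -1.39, -1.18 and -1.70 in Het mice, with a mean of -1.49 ± 0.19, 2.82-fold lower, and an adjusted p of 0.0028 in limma. Pabpc1 loading was the most even of the low members, at -1.40, -1.40 and -1.60 in WT and -1.18, -1.09 and -1.59 in Het mice. Its mean was -1.38 ± 0.15, 2.60-fold lower, with an adjusted p of 0.0017 in limma. All 3 genes were below 0 in 6 of 6 mice and kept their call under every alternative run for loading, with means of -2.34, -1.33 and -1.40 without WT mouse 2.

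Eef1d loading was 0.89, 0.47 and 0.70 in WT and 0.65, 0.86 and 0.50 in Het mice, above 0 in 6 of 6. The mean was 0.68 ± 0.14, 1.60-fold higher on polysomes, with an adjusted p of 0.016 in limma. This call was lost under 75th percentile scaling, where the mean was 0.27, and on leaving out WT mouse 3 or any single Het mouse. The Eef1d mean was 0.73 without WT mouse 2 (adjusted p 0.014).

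The remaining TOP members were not called by their brightest probe. Eef2 loading was -1.07, -0.99 and -0.26 in WT and -0.45, 0.0046 and -0.64 in Het mice, with a mean of -0.57 and an adjusted p of 0.056 in limma. It was called with normexp background correction (-0.54), in the series table (-0.60), with only probes well above background on all arrays or with no mouse block (-0.57 in both), and under 75th percentile scaling (-0.98), at adjusted p of 0.0061 to 0.021. Eef1a1 loading was 0.12, -1.03 and -0.17 in WT and -0.48, -0.54 and -0.29 in Het mice, with a mean of -0.40 (95% interval -0.84 to 0.041) and an adjusted p of 0.16. Eef1g had a mean of -0.19 (95% interval -0.57 to 0.18) and Npm1 one of -0.022 (-0.38 to 0.33). The 75th percentile scaling also called Eef1a1 (-0.63, adjusted p 0.042) and Eef1g (-0.66, adjusted p 0.032), and the mean of all its probes called Eef1g (-0.67, adjusted p 0.024). Eef2k had a mean of 0.25 (-0.27 to 0.77). Within single mice the median loading of the 8 TOP members was -0.47, -1.01 and -0.21 in WT and -0.46, -0.34 and -0.48 in Het mice, below the median of all probes in 6 of 6. WT mouse 2 had the lowest loading of the 6 mice for 6 of the 8 TOP members, so its place in these means was uneven. Without it the means were -0.51 for Eef2 (adjusted p 0.088), -0.23 for Eef1a1 (adjusted p 0.23), -0.080 for Eef1g, 0.065 for Npm1 and 0.082 for Eef2k. The same 4 members were then called, beside 13.4% of all probes lower and 14.8% higher, and the median of the TOP members' means moved from -0.48 to -0.37.

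**Figure D2:**
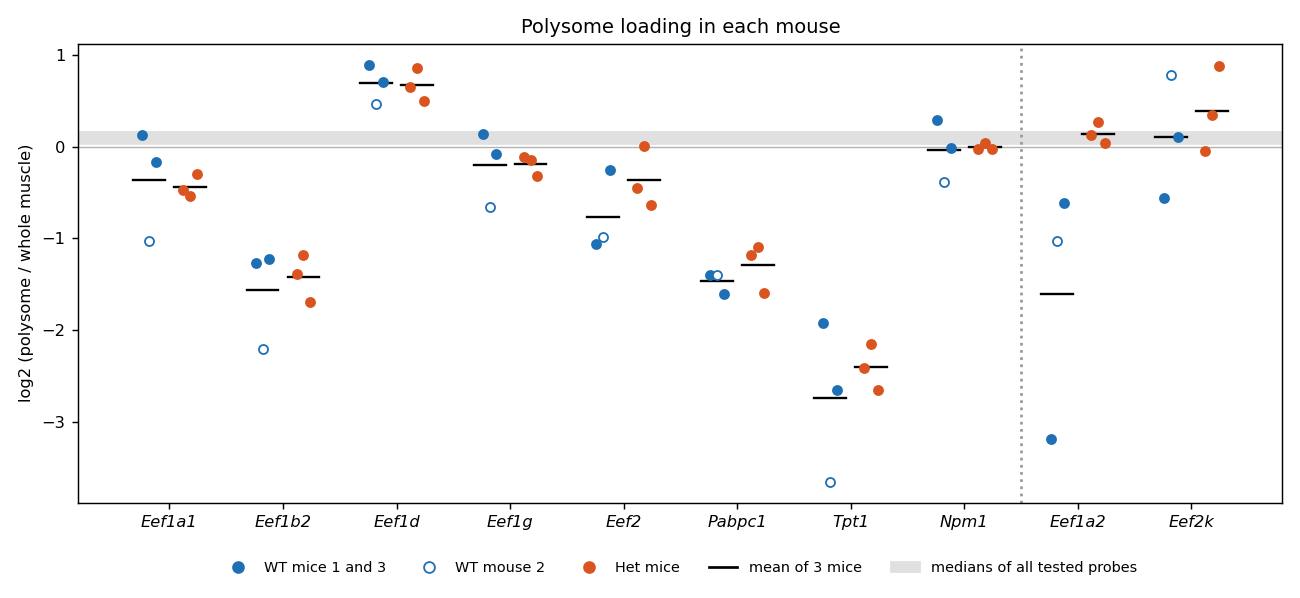
Loading, the log2 ratio of polysome to whole-muscle signal (vertical axis), is plotted for each of the 6 mice and 10 genes, with TOP members left of the dotted line; bars are means of 3 mice and the grey band spans the medians of all tested probes. Tpt1, Eef1b2 and Pabpc1 lie below the band in every mouse, Eef1d lies above it, and Eef1a2 is spread from -3.18 to 0.26.

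Members with several probes showed how far a loading value depended on the piece of mRNA that was read. The 3 Tpt1 probes stayed within -2.46 and -2.75, and those at bases 707 and 734 share 33 bases. The 3 Eef1g probes, at bases 575, 1030 and 1324 of their transcripts, gave means of -0.85, -0.98 and -0.19, with adjusted p values of 0.063, 0.017 and 0.40 in limma. The brightest Eef1g probe, that nearest the 3' end, was thus the only Eef1g probe near 0. With WT mouse 2 left out the Eef1g probes gave -1.12, -0.95 and -0.080, and those at bases 575 and 1030 were both called (adjusted p 0.013 and 0.032). The 5 Npm1 probes spread further. Those at bases 822 and 1011 were low on polysomes, with means of -1.05 (adjusted p 0.0051) and -1.01 (adjusted p 0.033). Those at bases 805 and 1295 gave -0.022 and -0.61, neither of them called. No loading is given for that at base 1127, whose whole-muscle signal was not well above background in any Het mouse. The Npm1 probes at 822 and 1011 stayed low without WT mouse 2 (-0.95 and -0.72, adjusted p 0.0068 and 0.023), and that at 1295 stood at -0.19.

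The Npm1 probes at bases 805 and 822 overlap by 43 bases with 1 mismatch, yet gave loading means of -0.022 and -1.05. A 30-base window of that overlap is shown, with the mismatched base in capitals; from 1 at the window's 5' end the change is T16A.
Npm1 probe at base 805: cacaaaaatcaaaccTaaatggaaaagact
Npm1 probe at base 822: cacaaaaatcaaaccAaaatggaaaagact
By the files, the probe at base 805 spans 303 bases of mm9 chromosome 11 and that at base 822 spans 60. The probe at 805 read 10.24 to 10.50 in whole muscle and that at 822 read 7.04 to 7.29. Whether transcripts or copies other than Npm1 contribute to either was not tested, so its loading is given as uncertain.

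**Figure D3:**
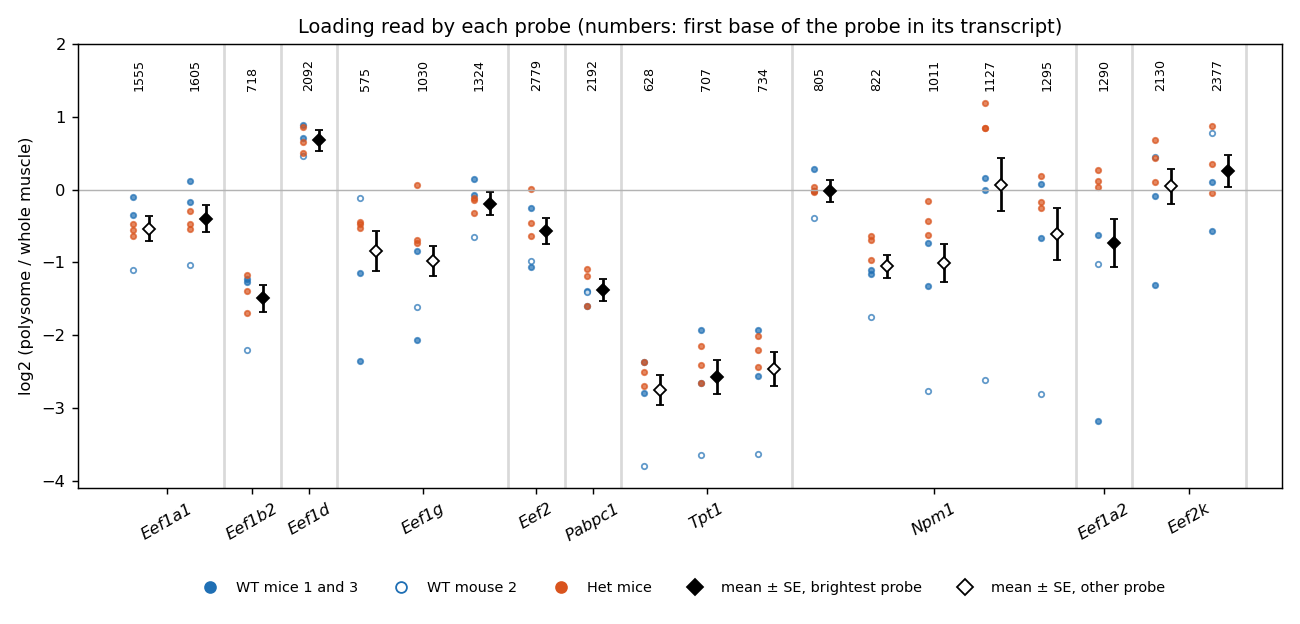
Loading (vertical axis, log2 polysome over whole muscle) is shown for each of the 20 tested probes, grouped by gene and marked with the first base of the probe in its transcript; small points are mice, diamonds are means of 6 mice with SE, filled for the brightest probe of a gene. The Tpt1 probes stand together near -2.6, whereas the Npm1 probes run from -0.022 down to -1.05, leaving aside that at base 1127, whose Het points divide by whole-muscle signal not well above background.

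The other TOP mRNAs of the cell gave a wider view of the same pattern. The 24 tested further TOP mRNAs included initiation factor subunits, ribosome-associated factors, import factors, other proteins and the non-coding RNA Gas5. Of these, 8 had loading below 0 at an adjusted p under 0.05 and 0 had loading above, with a median of -0.38. The lowest were Ybx1, an mRNA-packaging protein (-2.60), and Eif3e, an eIF3 subunit (-2.47), and the highest were Eif3k (0.45) and Btf3 (0.32). Of 48 large-subunit ribosomal protein genes 27 were low and 0 high, with a median of -0.61, from Rplp0 (-2.12) and Rpl12 (-1.91) up to Rpl27 (0.29) and Rpl36al (0.46). Of 32 small-subunit genes 25 were low and 0 high, with a median of -0.83, from Rps19 (-2.24) and Rps20 (-2.20) up to Rps27a (-0.12) and Rps9 (0.22). Over all 15593 tested genes the median was 0.12, with 1741 low and 2219 high. The TOP members' median of -0.48, with 3 of 8 low and 1 high, therefore lay between that of the further TOP mRNAs and that of the ribosomal proteins. Medians without WT mouse 2 were -0.37 for the TOP members, -0.29 for the further TOP mRNAs (10 low), -0.60 for the large subunit (26 low) and -0.82 for the small subunit (25 low), beside 0.16 over all genes. The lowest further TOP mRNAs were then Eif3e (-2.57) and Eif3i (-2.30), with Ybx1 at -2.10.

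Non-TOP parts of the elongation pathway lay near the median of all genes. The 17 tested partners of elongation and termination had a median of 0.038, with 3 low and 1 high. Abce1, which splits ribosomes for reuse, stood at -1.02 (adjusted p 0.019), and Eef1e1, a scaffold protein of the tRNA synthetase complex, at -1.0 (adjusted p 0.0068). Pelo, a ribosome rescue factor, stood at 0.52 (adjusted p 0.048) and Gtpbp1, a GTPase, at 0.60 (adjusted p 0.13). The 5 mitochondrial elongation genes had a median of 0.19, from Guf1 (-0.71, adjusted p 0.052) and Tsfm (-0.15) to Gfm2 (0.43) and Tufm, the mitochondrial EF-Tu, which was high (0.75, adjusted p 0.027). Of 23 regulators of TOP mRNAs and eEF2 kinase 2 were low and 2 high: Mtor (-1.32, adjusted p 0.0071) and Cnbp (-0.82, adjusted p 0.013), means over genotypes that stood 1.89 and 1.64 apart with Het higher (adjusted p 0.11 for both), against Ssb, the La protein (1.32, adjusted p 0.0026), and Tial1 (0.54, adjusted p 0.047). The partners had a median of 0.071 without WT mouse 2 (4 low, 2 high), and the mitochondrial genes one of 0.53 (1 low, 2 high), where Guf1 was low (-0.88, adjusted p 0.019). Tial1 was then not called (0.45, adjusted p 0.065).

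**Figure D4:**
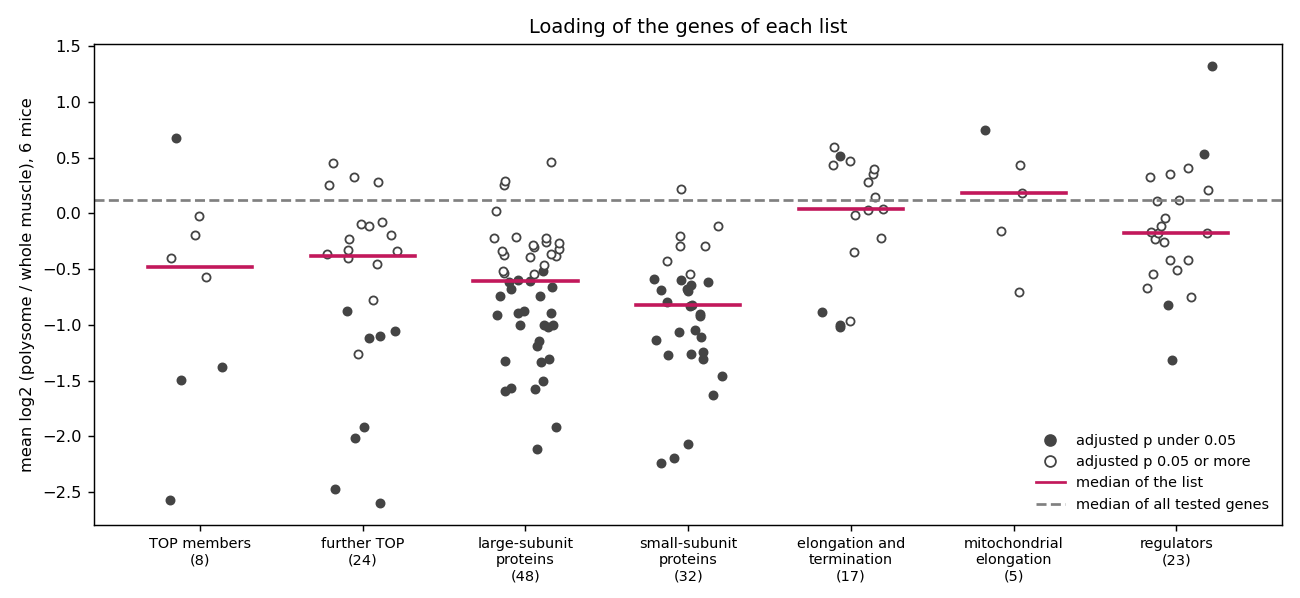
Each point is the mean loading over 6 mice (vertical axis, log2 polysome over whole muscle) of 1 gene in 7 lists, filled where the adjusted p was under 0.05; red bars are list medians and the dashed line is the median of all tested genes, 0.12. The TOP lists and the ribosomal protein lists lie below the dashed line, and the elongation partners and mitochondrial factors lie around it.

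Cell type markers moved between the same kinds of RNA. The summed signal of 6 adipocyte markers was 10.8 to 12.5 in whole muscle and 12.7 to 13.8 on polysomes (log2, with 5 of 6 well above background on every array), and that of 6 fibroblast markers was 14.1 to 14.9 in whole muscle and 15.2 to 15.8 on polysomes, with all 6 well above background. That of 5 satellite cell markers was 10.7 to 11.3 in whole muscle and 11.4 to 12.3 on polysomes, with 2 to 4 of 5 well above background. All 3 sums were higher on polysomes in 6 of 6 mice, as were those of 7 slow-fibre markers, by 0.70 to 1.15 within a mouse, and of 10 immune markers, by 0.26 to 1.14. Erythroid and endothelial sums were higher in 4 mice, Schwann cell sums in 3 and skeletal muscle sums in 2. On the monosome arrays the skeletal muscle sums were 18.8 to 19.2, against 19.6 to 19.7 in whole muscle. Erythroid sums were 16.5 to 17.7 there, against 15.2 to 15.8. Sums of the other lists overlapped between monosomes and whole muscle. The part of these markers in the loading and monosome values of the members was not tested.

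Whether loss of 1 Eif6 copy shifted these mRNAs was compared in whole muscle, on polysomes and in loading, at the study's thresholds of an absolute log2 difference above 1 and p under 0.05, with limma's p (called the study's rule below), as well as at adjusted p under 0.05. No TOP member passed the study's rule by its brightest probe in any of these comparisons, while Eef1a2 passed it on polysomes and in loading. With the p of the methods' unpaired test in place of limma's, no member passed by its brightest probe, Eef1a2 included. No member passed at an adjusted p. Over all 19806 probes, limma called 2, 0 and 0 probes at adjusted p under 0.05 in whole muscle, on polysomes and in loading (1675, 3004 and 3341 at p under 0.05), and the methods' unpaired test called 0 in each after adjustment (1238, 1773 and 2727 at p under 0.05). In loading the 0 became 375 probes lower and 54 higher in Het mice with normexp background correction, and 353 and 60 in the series table, none of them the brightest probe of a member. With 3 mice a side the smallest exact permutation p is 0.1.

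In whole muscle 0 of the 10 members passed the study's rule, against 5.63% of all probes. The differences between Het and WT ran from -0.69 (Eef1a2, limma adjusted p = 0.73) to 0.33 (Tpt1, 95% interval -0.59 to 1.26). By brightest probe, the WT and Het arrays did not overlap for Pabpc1 only, which was lower in Het by -0.50 (limma adjusted p = 0.63, exact permutation p = 0.1), and 13.6% of all probes did not overlap. The Npm1 probe at base 1127 was well above background on all 3 WT and on 0 of 3 Het whole-muscle arrays, which makes its signal at least 1.54-fold higher in WT (limma adjusted p = 0.63). It entered the tests through WT whole muscle alone, the group where it was brightest, so this value is a description. The brightest Npm1 probe differed by -0.10.

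On polysomes Eef1a2 was higher in Het mice by 1.06 (95% interval 0.064 to 2.05; limma adjusted p = 0.31), and 5.74% of all probes passed the study's rule. Its WT and Het polysome ranges overlapped, with an exact permutation p of 0.2. No member's brightest probe separated WT from Het on polysomes, against 21.8% of all probes. Among the other probes, that of Npm1 at base 1011 passed the study's rule (1.07, limma adjusted p = 0.31) with overlapping ranges, and that of Eef1g at base 1030 was higher on every Het than on every WT polysome array (0.79, limma adjusted p = 0.28). Without WT mouse 2, Eef1a1 passed the study's rule as well, lower in Het by -1.07 (limma adjusted p = 0.21) where the value with that mouse was -0.47, and Eef1a2 stood at 1.42, against 4.22% of all probes. The Npm1 probe at base 1127 then stood at -1.47 (from -0.12 with that mouse). It was well above background on 2 of 3 polysome arrays of each genotype. Since it entered the tests through WT whole muscle alone, this value too is a description. The probes of Npm1 at base 1011 and Eef1g at base 1030 stood at 0.43 and 0.77. Leaving out WT mouse 2 likewise took Eef1a1 from -0.39 to -0.66 in whole muscle and from 1.04 to -0.83 in monosome RNA.

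In loading, no TOP member was called between genotypes. Their Het minus WT differences by brightest probe ran from -0.077 (Eef1a1) to 0.41 (Eef2), with a median of 0.089 beside 0.14 over all genes. All 8 of these intervals contained 0, and together they reached from -0.96 (Eef1a1) to 1.45 (Tpt1), so that these 6 mice bound a shift of the TOP members only loosely. For Pabpc1, Eef1d, Eef1g and Npm1 the intervals stayed between -0.75 and 0.86. WT and Het mice overlapped for all 8, whereas 25.3% of all probes did not overlap. Leaving out WT mouse 2, the differences ran from -0.41 (Eef1a1, adjusted p 0.49 in limma) to 0.30 (Eef2), their median turned to -0.13 beside 0.056 over all genes, and Tpt1 turned from 0.34 to -0.11. Eef1a1 and Eef1g (-0.22) were then lower in every Het mouse than in WT mice 1 and 3, against 35.9% of all probes that did not overlap.

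Eef1a2 loading was -3.18, -1.03 and -0.62 in WT and 0.12, 0.26 and 0.034 in Het mice. All WT mice were below 0 and all Het mice above it, and the WT spread came largely from mouse 1. The difference was 1.75 ± 0.65 (SE; 95% interval 0.21 to 3.29), 3.36-fold higher in Het mice, with an adjusted p of 0.25 in limma and an exact permutation p of 0.1. The study's rule was passed by 13.9% of all probes in this comparison, and 25.3% did not overlap. The difference was 1.5 with the slide as a term, 2.04 without WT mouse 2 and 0.96 without WT mouse 1, and the polysome difference of 1.06 was 0.49 without WT mouse 1. Eef1a2 no longer passed the study's rule in loading without WT mouse 1 or any single Het mouse (1.76, 1.69 and 1.80 without Het mice 1, 2 and 3), nor on polysomes without WT mouse 1, Het mouse 2 (0.93) or Het mouse 3 (0.998). Array brightness moved with it: the log2 ratio of polysome to whole-muscle 75th percentile was -1.46, -1.24 and 0.64 in WT and 1.16, 2.98 and 1.73 in Het mice, and with that ratio as a term the Eef1a2 difference was 0.33. Erythroid markers moved too, with a summed signal of 16.4 to 17.6 on WT and 15.4 to 15.8 on Het polysome arrays (6 or 7 of 7 well above background) and 15.2 to 15.8 in whole muscle. The summed signal of 6 fibroblast markers, all well above background, was 15.8 on each WT polysome array and 15.2 to 15.4 on the Het ones, again without overlap. Skeletal muscle genes moved as well: the Het minus WT loading of 10 markers had a median of 0.48, with 8 above 0 and none called at adjusted p under 0.05, from Myh4 (-0.24) and Tnni2 (-0.19) up to Ckm (1.71, adjusted p 0.23) and Atp2a1 (2.80, adjusted p 0.14). Of these 10, Acta1 (1.12), Ckm and Atp2a1 passed the study's rule as Eef1a2 did, and 4 passed it without WT mouse 2. The part of these signals in the Eef1a2 values was not tested.

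Set directly against each other within a mouse, Eef1a1 loading minus Eef1a2 loading was 3.31, -0.0066 and 0.45 in WT and -0.60, -0.81 and -0.33 in Het mice. The mean over all mice was 0.34 ± 1.52 (SD, n = 6), with 2 of 6 mice above 0 and an exact sign-flip p of 0.875. It pools genotype means of opposite sign. The WT mean of 1.25 ± 1.80 and the Het mean of -0.58 ± 0.24 (SD, n = 3) did not overlap, with an exact permutation p of 0.1, the smallest these numbers allow. With both genotypes weighed equally, the mean was 0.65 without WT mouse 2 and -0.18 without WT mouse 1. The WT mean was then 1.88 and 0.22, and the genotypes stayed separate in both cases. The other Eef1a1 probe gave a mean of 0.20. In 3 of 3 Het mice 7 of the 8 TOP members had lower loading than Eef1a2, against 0, 4 and 3 of 8 in WT mice 1, 2 and 3, a count that follows the shift of Eef1a2 itself.

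Single probes of Eef1g and Npm1 also differed in loading. The Eef1g probe at base 1030 was higher in Het mice by 1.05 (limma adjusted p = 0.28), with -2.06, -1.61 and -0.84 in WT and -0.73, 0.065 and -0.69 in Het mice and no overlap. It passed the study's rule, as did 13.9% of all probes, and 25.3% of all probes did not overlap. The brightest Eef1g probe differed by 0.0051. Without WT mouse 2 the probe at base 1030 no longer passed (1.0), whereas the Eef1g probe at base 575 (1.27, from 0.73) and the Eef2k probe at base 2130 (1.1, from 0.72) did, against 14.1% of all probes. The Eef2k probe was well above background on 1 of 3 Het whole-muscle arrays, which limits its value.

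The gene lists around the members gave no adjusted calls between genotypes in loading. Medians were 0.46 for the further TOP mRNAs, 0.51 for the regulators, -0.041 for all 80 ribosomal protein genes, 0.40 for the elongation partners and 1.15 for the 5 mitochondrial elongation genes, of which Guf1 (1.23) and Gfm1 (1.18), both translation GTPases of mitochondria, were the highest. The study's rule, passed by 13.9% of all probes, was passed by 3 of 24 further TOP mRNAs, 2 of 23 regulators, 0 of 80 ribosomal protein genes, 1 of 17 elongation partners and 2 of 5 mitochondrial genes, all higher in Het mice. These were Ipo7 (2.12), a nuclear import receptor, Eif3e (1.57) and Eif3i (1.55), subunits of the initiation factor eIF3, Mtor (1.89), Cnbp (1.64), the ribosome recycling factor Abce1 (1.32), Guf1 and Tsfm (1.15), the mitochondrial exchange factor. Among the regulators, Tsc2 (-0.59) and Ssb (-0.24) were the lowest. Without WT mouse 2 the medians, in the same order, were 0.090, 0.23, -0.12, 0.23 and 0.49, so that the further TOP, regulator and mitochondrial values rested in good part on that mouse, while Mtor (1.94) and Cnbp (1.55) did not move by much. The rule was then passed by 6, 3, 1, 1 and 2 genes of these lists, against 14.1% of all probes.

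Monosome RNA separates an mRNA that carries a single ribosome from one that carries several, and was compared with both other kinds in a limma fit of all 16 arrays, which sets the 4 monosome arrays against all 6 arrays of the other kind. Values in single mice, and the fit with the mouse as a block, use only the 4 mice that had monosome RNA. With all arrays, 2 TOP members were lower on polysomes than on monosomes, 1 was higher, and Eef1a2 and Eef2k were not called by their brightest probe. All probes had 9.07% lower and 16.9% higher. Eef2 was lower by -1.57 ± 0.19 (SE; adjusted p 0.00038), with -1.81, -1.88, -1.18 and -1.85 in WT mice 1 and 2 and Het mice 1 and 3. Pabpc1 was lower by -1.50 ± 0.34 (adjusted p 0.0074), with -2.05, -0.36, -1.94 and -2.04 in these mice. Eef1d was higher by 0.82 ± 0.16 (adjusted p 0.0034), with 0.88, 0.65, 0.94 and 0.69. With the mouse as a block, Eef2 alone was called (-1.68, adjusted p 0.048), Pabpc1 stood at -1.60 (adjusted p 0.057) and Eef1d at 0.79 (adjusted p 0.076). Without Het mouse 1 or 3, Pabpc1 was not called (adjusted p 0.097 and 0.066), nor Eef1d without Het mouse 1 (adjusted p 0.071). The Eef2k probe at base 2130 was well above background on all 6 polysome and on 0 of 4 monosome arrays, which makes its signal at least 1.66-fold higher on polysomes (limma adjusted p = 0.0099 without a block).

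These values turned on WT mouse 2. Tpt1 polysome minus monosome was -2.44 in WT mouse 1, 0.87 in WT mouse 2 and -2.54 and -2.62 in the Het mice, and Eef1b2 was -1.55, 0.32, -1.35 and -1.65. Without WT mouse 2, 8 of 10 members were called where 3 had been. Lower on polysomes than on monosomes were Tpt1 (-2.42, adjusted p 0.00027 in limma), Pabpc1 (-1.99, 0.00032), Eef2 (-1.53, 0.00064), Eef1b2 (-1.50, 0.0010), Eef1a1 (-1.01, 0.0066) and Eef1g (-0.62, 0.014). Higher were Eef1d (0.84, adjusted p 0.0020) and Eef2k (1.0, adjusted p 0.010). Over all probes without that mouse, 14.1% were lower and 21.7% higher. Npm1 (0.27, adjusted p 0.24) and Eef1a2 (0.40, adjusted p 0.47) were the members not called.

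Eef1a2 went opposite ways by genotype here as well, at -0.83 and -0.65 in the WT and 0.91 and 0.52 in the Het mice, a difference that was not tested. Against whole muscle, Eef2 was the member higher on monosomes with all arrays, by 1.01 ± 0.19 (SE; adjusted p 0.0046 in limma), and in single mice by 0.74, 0.89, 0.73 and 1.21. With the mouse as a block it stood at 0.89 (adjusted p 0.30), and without Het mouse 1 or 3 it was not called either (adjusted p 0.052 and 0.060). All probes had 14.2% lower and 10.8% higher on monosomes. Without WT mouse 2, Eef1a1 (0.78, adjusted p 0.031) and Eef1g (0.54, adjusted p 0.035) were higher too, and Eef1a2 (-1.28, adjusted p 0.045) and Eef2k (-0.92, adjusted p 0.023) were lower, against 15.5% of all probes lower and 9.47% higher. Tpt1 (0.13) and Eef1b2 (0.15) then stood near their whole-muscle level on monosomes and Pabpc1 at 0.58 (adjusted p 0.085).

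**Figure D5:**
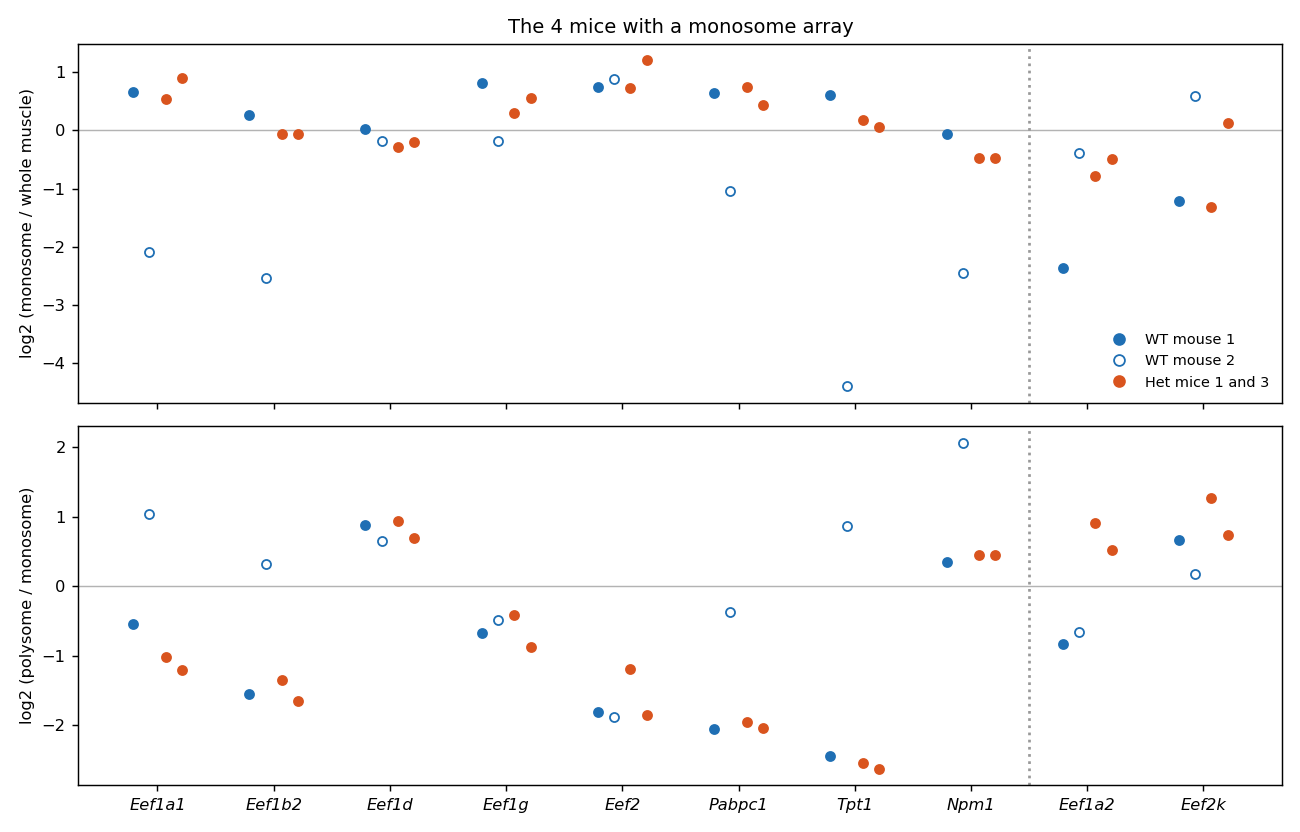
For the 4 mice with monosome RNA, the upper panel plots log2 monosome over whole-muscle signal and the lower panel log2 polysome over monosome signal (vertical axes) for each of the 10 genes, with open points for WT mouse 2. In WT mouse 1 and both Het mice Tpt1, Pabpc1, Eef2, Eef1b2, Eef1a1 and Eef1g lie below 0 in the lower panel and Eef1d and Eef2k above it; WT mouse 2 departs from this for Eef1a1, Eef1b2 and Tpt1, and Npm1, above 0 in all 4 mice, is farthest from 0 there.

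Between genotypes, the monosome median of the TOP members was higher in Het mice by 0.45, with Tpt1 at 2.52 (limma adjusted p = 0.13), the member that passed the study's rule, against 28.6% of all probes. That median turned to -0.26 without WT mouse 2, with Tpt1 at 0.065 and the other 7 TOP members below 0. It turned the other way without WT mouse 1, to 1.57, with 7 of 10 members past the rule against 55.8% of all probes. Either step leaves 1 WT monosome array, assumed to vary like the other groups, so these values describe single mice. The ribosomal protein genes showed the same break of pattern and the same return. Of 80, 19 were lower and 2 higher on polysomes than on monosomes (median -0.55). Their median was -0.94 without WT mouse 2, on 1 WT monosome array. The 5 mitochondrial elongation genes, in contrast, were all higher on polysomes, from Gfm2 (1.13) to Gfm1 (1.57), with adjusted p values of 0.00081 to 0.032 and a median of 1.38, and 1.26 without WT mouse 2. Between genotypes, skeletal muscle marker sums were higher on both Het than on both WT monosome arrays. Those of erythroid, immune, adipocyte, fibroblast and satellite cell markers were lower, and the other sums overlapped. Their part in the monosome values was not tested.

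Over the 16 arrays the centred mean of the 8 TOP members ran closest to Rps3a1 among named genes (Pearson r 0.98 over 7816 genes read on all arrays), next to 4 rows named by a probe or transcript identifier only. Within the members, Tpt1 and Eef1b2 ran most alike (r 0.98), and Eef1d ran against Eef2 (r -0.77) and Pabpc1 (r -0.77). Eef1a2 ran closest to Atp2a1, the fast-fibre calcium pump (r 0.95), Gmpr (0.93) and Sptb (0.93), and Eef2k to Cnp (0.91), Sypl2 (0.88) and a probe with no gene name (0.88). These values describe arrays that share mice and slides. On the 14 arrays without the WT mouse 2 polysome and monosome arrays, r was 0.97 for Rps3a1, 0.96 for Tpt1 with Eef1b2 and 0.96 for Atp2a1 with Eef1a2, and Eef1d ran most against Tpt1 (-0.91, from -0.53).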

How the data were processed

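The 16 single-colour Agilent arrays were read with Agilent software (Feature Extraction 11.0.1.1, per the file headers), and the deposited values used here are background-subtracted spot intensities. The authors' deposited series table holds log2 values and served as an alternative. Flagged and control spots were left out, spots of a probe were averaged, and log2 intensities were quantile-normalized over 12 arrays (whole muscle and polysome), or over all 16 where monosomes entered. Probes were tested (limma 3.58.1, R 4.3.3) if some group had them well above background throughout (19806 and 20244). Loading pairs the arrays of a mouse, because the series design states that each mouse gave every RNA. Same-mouse deviations correlated with r of 0.0585 to 0.485. Those of WT and Het mice of the same number, which are different mice, had r of -0.329 to 0.456 within a kind of RNA. No spot was saturated; arrays carry no read depth, so the number of mice limits precision. The pipeline was tested on simulated data. All 10 members are named, and of each further list the 2 highest and 2 lowest genes in loading, with called genes and, elsewhere, single genes chosen after their values were seen. Members and lists were chosen with earlier results of these data known.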

Additional observations from a re-analysis of the deposited data

Results flagged for a closer look

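Eef1a2 loading, polysome over whole muscle, had opposite signs in the genotypes: all 3 WT mice were below 0 and all 3 Het mice above it. The means differed by 1.75 on the log2 scale (limma adjusted p = 0.25). In loading, 25.3% of all probes did not overlap between genotypes, whatever their sign. The difference was smaller without WT mouse 1 and with array brightness as a term, as given above.

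Eef1a2 on polysomes against monosomes also had opposite signs, below 0 in both WT mice and above 0 in both Het mice, with means 1.45 apart; this difference was not tested. The whole-muscle arrays do not enter it, but the polysome arrays are shared with the loading value. WT mouse 2 is in the WT pair, and the share of all probes with such opposite signs was not determined.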

How the results depend on the processing

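Of 1020 member values under alternative settings, 903 kept their direction and their side of the threshold, 47 crossed 0 by less than the spread between replicates, 21 reversed, 13 fell below the threshold and 36 rose past it; the cause was not tested. The whole-muscle Het minus WT median of the TOP members, -0.035, was 0.088 under 75th percentile scaling, 0.25 with array brightness as a term and -0.15 in the series table. The loading median of -0.48 was -0.82 under 75th percentile scaling. The monosome Het minus WT median of 0.45 ranged from -0.26 to 1.57 on leaving out 1 mouse, which can leave an arm of 1 array, assumed to vary like the other groups.

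Members passing between genotypes on polysomes (1) fell to 0 with normexp, the series table, a slide term, slide 1 or 2 alone, brightness and the Student test, and to 0 to 2 on leaving out a mouse; in loading (1) to 0 without a filter, with a slide term, brightness and the Student test, and to 0 to 1 on leaving out a mouse; in whole muscle (0) 1 passed on slide 2 alone. Polysome minus monosome (3) gave 5 with normexp, with probes above background on all arrays or with the mean of all probes (chosen after seeing the data), 1 with the replicate block by mouse and 1 to 8 on leaving out a mouse. Monosome minus whole muscle (1) gave 3 under 75th percentile scaling, 0 with the replicate block and 0 to 5 on leaving out a mouse; monosome Het minus WT (1) gave 0 to 7. The block across genotypes, where numbers do not pair mice, left the polysome median at 0.11.

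Reversed member values under 75th percentile scaling were Eef1d (0.22) and Eef2 (0.12) in monosome Het minus WT and Eef1g (-0.052) in monosome minus whole muscle. In whole muscle they were Eef2 (0.13) and Eef1a2 (0.055) on slide 1, Eef2k (0.26) on slide 2, and Eef1a1 (0.60), Eef2 (0.13) and Npm1 (0.18) with brightness, which also turned Eef1b2 (-0.38) and Eef2 (-0.51) in loading. Leaving out 1 mouse, ranges in monosome Het minus WT were Eef1b2 -0.39 to 2.68, Eef1a2 -1.15 to 0.53, Eef1a1 -0.83 to 2.91, Eef2 -0.44 to 0.13, Pabpc1 -0.86 to 1.26, Npm1 -0.66 to 1.88, Eef2k -1.03 to 0.20, Eef1g -0.031 to 0.59, in monosome minus whole muscle that of Eef1a1 was -0.85 to 0.78 and in polysome Het minus WT that of Npm1 was -0.25 to 0.16.

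Eef2 loading was called (adjusted p 0.0061 to 0.021) with normexp, the series table, the filter on all arrays, no replicate block and 75th percentile scaling. Loading calls between genotypes over all probes, 0 here, were 375 lower and 54 higher with normexp and 353 and 60 in the series table. Dim probes limit Npm1 and Eef2k.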
